A study of Mus musculus with 2 samples.

Results

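Gfap, Vim, Serpina3n, Tgm2, S100b and Myoc are 6 genes that astrocytes raise on injury or carry at the brain's borders and tracts. They were taken by symbol from the 19465 genes of a probe panel, and all 6 were in it. Their counts were read in 1 section of mouse brain profiled with Visium CytAssist, an assay that captures ligated probe pairs on a grid of barcoded spots and gives unique molecular identifier (UMI) counts. The labels name 2 samples, both from brains of male mice aged 6 months. The first is from a G2-3 mouse, a line carrying A53T alpha-synuclein, and the second from a wild-type (WT) mouse. The sources used here do not give the promoter driving the transgene. The 2 count matrices were the same file, with 0 differing entries among 8667725 nonzero ones, and count here as 1 sample. G2-3 was not compared with WT. The library is given no genotype, because the lists of spot positions differed and could themselves be exchanged. The values below are therefore levels across areas of 1 section of 1 animal, with no replicate check. Each interval is a 95% exact interval that covers counting error only.

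Astrocytes take up glutamate and potassium, contact vessels with their endfeet and seal the brain surface as the glia limitans, the layer of processes under the meninges. Those of fibre tracts and of the surface are rich in intermediate filaments built from GFAP and vimentin, while those of the grey matter of the cortex carry little GFAP at rest. After injury or inflammation, cytokines of the interleukin-6 family act through JAK kinases and the transcription factor STAT3 to raise Gfap, Vim and the secreted protease inhibitor Serpina3n, which is why these genes are read as markers of reactive astrocytes.

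The sequence before each start site is shown for 3 of the 4 members that were highest in the meninges (Tgm2, the other, has none here), as the context of STAT3 control, with the STAT letters TTCNNNGAA (the same on both strands), TATAAA and CCAAT (both strands) in capitals. The stretches run 5′ to 3′ on the gene's strand, hold 250 bases up to the base before the gene and come from RefSeq in build GRCm38.p6.
Gfap, chr11:102897201-102897450, minus strand: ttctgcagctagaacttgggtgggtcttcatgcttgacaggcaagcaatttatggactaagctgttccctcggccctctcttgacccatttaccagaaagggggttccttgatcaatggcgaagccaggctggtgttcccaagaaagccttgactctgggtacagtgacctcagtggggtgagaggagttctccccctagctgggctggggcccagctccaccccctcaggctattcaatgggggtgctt
Vim, chr2:13574061-13574310, plus strand: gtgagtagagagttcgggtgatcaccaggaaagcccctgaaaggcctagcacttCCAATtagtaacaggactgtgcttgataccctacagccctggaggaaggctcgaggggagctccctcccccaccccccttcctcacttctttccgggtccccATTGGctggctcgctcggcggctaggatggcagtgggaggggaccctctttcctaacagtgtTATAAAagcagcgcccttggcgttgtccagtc
Myoc, chr1:162638900-162639149, plus strand: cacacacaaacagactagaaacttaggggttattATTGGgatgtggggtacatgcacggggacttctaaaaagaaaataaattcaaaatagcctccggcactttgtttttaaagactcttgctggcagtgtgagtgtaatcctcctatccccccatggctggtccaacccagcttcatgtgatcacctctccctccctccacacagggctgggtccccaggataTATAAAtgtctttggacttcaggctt
The STAT letters occurred in 1 of the 5 members that had a window of 300 bases (250 before and 50 after the start), namely Gfap. They lay across its start site, beginning 2 bases before it, at chr11:102897184-102897212 on the minus strand, shown with 10 bases on each side.
Gfap start site: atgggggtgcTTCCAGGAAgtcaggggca
Of 32851 windows of this length, 8.30% held the STAT letters, 13.6% held TATAAA and 37.4% held CCAAT. Vim held TATAAA beginning 32 bases before its start and Myoc 26 bases before, and the Gfap window held neither TATAAA nor CCAAT. No match says only that these letters are not in this window.

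The library held 20997947 UMIs on the 2485 spots marked as tissue that had at least 500 UMIs, with a median of 6686 UMIs per spot and a range of 1183 to 80174. Clustering without the 6 genes and without other reactive, filament or astrocyte genes gave 16 clusters, which formed 14 areas, and 5 of these were named through marker genes. The tract was led by Klk6 and Trf and carried 14 of 14 oligodendrocyte markers at least 2-fold above all other spots. Its 183 spots had a median of 2673 UMIs. The meninges were led by Mgp and Igf2 and carried 13 of 14 fibroblast markers, in 147 spots with median 5169 UMIs. The hippocampal neuropil was led by Ddn and Glis3 and carried 6 of 12 neuropil markers, in 156 spots with median 3347 UMIs. In these spots 9 of 11 microglial and 12 of 16 astrocyte markers also passed 2-fold. The granule cell area was led by C1ql2 and Pcdh20 and carried 11 of 12 granule cell markers, in 49 spots with median 33713 UMIs. Cortex pooled 3 bands with 546 spots and a median of 10721 UMIs. The other 9 areas are called by their leading genes. A spot holds several cells, and in such spots fewer cells of a type and less RNA per cell cannot be told apart. Levels are in CPM, the UMIs of a gene scaled to 1000000 UMIs of the area, with the spots of an area summed. Areas are said to differ in a gene where the interval of their ratio leaves out equality. Levels of different genes are not set against each other, because their probes differ.

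The 6 genes fell into 3 patterns. Gfap, Vim, Tgm2 and Myoc were highest in the meninges, with the tract and the neuropil among the next areas, and low in cortex and granule cells. S100b was highest in the tract, followed by the Slc18a3/Prph and Tph2/Slc18a2 areas. Serpina3n had its highest level in the granule cell area and its lowest in cortex.

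**Figure D1:**
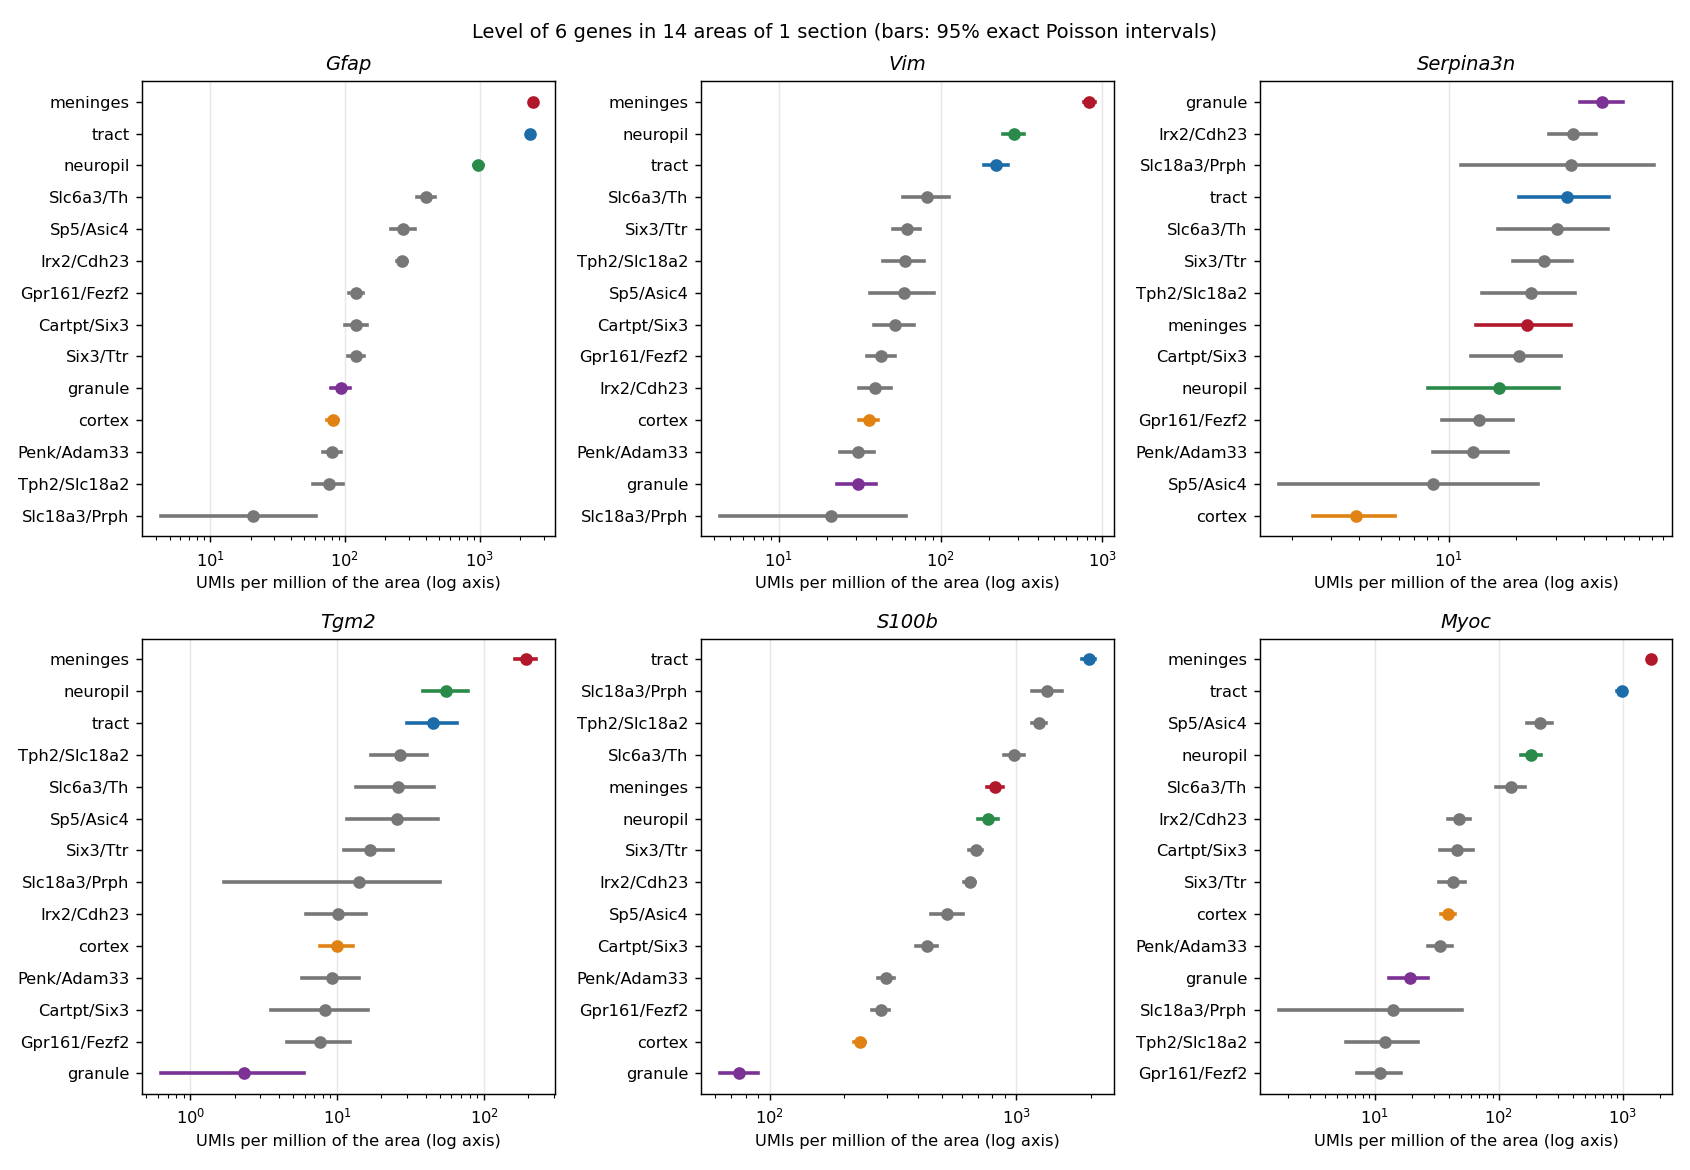
Level of each gene in 14 areas, as CPM on a log axis, ordered from the highest, with 95% exact Poisson intervals as bars and the 5 named areas in colour. Gfap was at 2499 CPM in the meninges and 2357 in the tract, while Serpina3n was highest in the granule cell area at 48.1.

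Gfap (chr11:102887336-102897200), the main intermediate filament protein of astrocytes, had 6337 UMIs and was seen in 1417 spots, or 57.0% of them. Its level was 2499 CPM in the meninges (2391 to 2610, from 2022 UMIs) and 2357 in the tract (2235 to 2484, from 1406 UMIs). The interval of their log2 ratio, -0.08 (-0.18 to 0.01), included 0, so their order was not settled, and it depended on how the areas were drawn. The ratio was -1.88 (-1.99 to -1.78) with areas set by marker sums per spot, -0.84 per spot and 0.21 (0.05 to 0.37) with only spots inside an area. The neuropil followed with 979 CPM (901 to 1062), 1.27 below the tract on the log2 scale (1.13 to 1.41).
Below these 3 areas the level dropped stepwise over the brain. The Slc6a3/Th area, whose leading genes belong to dopamine neurons, had 401 CPM (345 to 463). The Sp5/Asic4 area had 270 and the Irx2/Cdh23 area 264, and these neighbours did not differ. The Gpr161/Fezf2, Cartpt/Six3 and Six3/Ttr areas lay at 121 CPM each and were not distinguishable.
Cortex and granule cells were among the lowest areas. Gfap was at 93.3 CPM in the granule cell area (79.5 to 109), 81.1 in cortex (74.1 to 88.5), 80.6 in the Penk/Adam33 area and 75.8 in the Tph2/Slc18a2 area, and no neighbours among these 4 differed. The lowest level was 21.0 CPM (4.33 to 61.3), from 3 UMIs, in the 20 spots of the Slc18a3/Prph area. By spot, Gfap ran from 0 to 132 UMIs in the meninges with a median of 9, and from 0 to 54 in the tract with a median of 4. In cortex it ran from 0 to 8 with a median of 0, so the areas overlapped spot by spot. The 124 spots with the most Gfap UMIs held 44.8% of them, while the 124 deepest spots held 17.0% of all UMIs.

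Myoc (chr1:162639150-162649694) encodes myocilin, a secreted protein known from the drainage tissue of the eye and also made by astrocytes of the optic nerve and of the brain surface. It was the most concentrated member, with 66.0% of its 2799 UMIs in 124 spots. The meninges held 48.8% of all Myoc UMIs on 5.92% of the spots, at 1688 CPM (1600 to 1780), and the tract followed with 982 (904 to 1065). This order differed from that of Gfap in that the meninges stood apart from the tract, by a log2 ratio of -0.78 (-0.92 to -0.64) for tract over meninges.
The Sp5/Asic4 area had 216 CPM, and the neuropil, which did not differ from it, had 183 (150 to 221). The Slc6a3/Th area had 126 (95.5 to 163), below the neuropil. The next 5 areas, Irx2/Cdh23, Cartpt/Six3, Six3/Ttr, cortex and Penk/Adam33, ran from 48.0 down to 33.9 CPM, and no neighbours among these 5 differed. Cortex had 39.1 (34.3 to 44.3).
The granule cell area, below the Penk/Adam33 area by 0.83 on the log2 scale (0.22 to 1.46), had 19.1 CPM (13.2 to 26.9), and 3 areas lay below it without differing from their neighbours, down to 11.1 in the Gpr161/Fezf2 area. After each spot was thinned to 1000 UMIs, 67.3% of meninges spots still had a Myoc UMI (59.1% to 74.9%), against 3.66% of cortex spots and 0 of 49 granule cell spots. The interval of the last share reached 7.25%. Without thinning these shares were 95.9%, 19.0% and 32.7%.

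Vim (chr2:13574311-13582826) encodes vimentin, the partner filament of GFAP, which fibroblasts, vessel cells and ependyma also make. Its level was 834 CPM in the meninges (772 to 900), 284 in the neuropil (243 to 330) and 221 in the tract (185 to 262), and each of these differed from the next. Unlike for Gfap, the neuropil thus stood above the tract for Vim. From the Slc6a3/Th area with 82.3 CPM downward, no area differed from its neighbour. Cortex had 36.0 (31.4 to 41.1), the granule cell area 30.7 (23.01 to 40.2) and the Slc18a3/Prph area, from 3 UMIs, 21.0. The meninges held 38.1% of the gene's 1771 UMIs.

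Tgm2 (chr2:158116405-158146392), a transglutaminase that cross-links proteins and is made by endothelium as well as by astrocytes, was a rare transcript with 423 UMIs in 312 spots. Its level was 193 CPM in the meninges (164 to 226), where 36.9% of its UMIs lay. The neuropil with 55.4 (38.1 to 77.8) and the tract with 45.3 (29.8 to 65.9) did not differ. Of the other areas, the Tph2/Slc18a2 area had 26.9, cortex 10.0 (7.68 to 12.8) and the granule cell area 2.32 (0.632 to 5.94), the last from 4 UMIs. Only 1 further pair of neighbours differed, the Gpr161/Fezf2 area with 7.69 and the granule cell area below it.

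S100b (chr10:76253836-76261319) encodes a calcium-binding protein of astrocytes that is also found in oligodendrocytes and in some brainstem neurons. It was the most widely seen member, with 9926 UMIs in 90.3% of the spots, and only 20.8% of its UMIs lay in the 124 spots with the most of them. The tract had 1965 CPM (1854 to 2081). The next areas were not the meninges but the Slc18a3/Prph area with 1336 (1153 to 1539) and the Tph2/Slc18a2 area with 1236 (1161 to 1314), which did not differ from each other.
The Slc18a3/Prph area is led by a vesicular acetylcholine transporter and a filament gene of motor and sensory neurons. All 20 of its spots had S100b, with a median of 7 UMIs and a maximum of 33, while Gfap gave 3 UMIs and Vim 3 UMIs in the same spots. The astrocyte list was not absent there, since its 16 genes summed to 913 UMIs. S100b thus parted from the filament genes in this area, and the share of its UMIs that came from neurons was not tested. Oligodendrocyte markers summed to 21195 CPM in the Tph2/Slc18a2 area, where 13 of 14 passed 2-fold against other spots. In the Slc18a3/Prph area they summed to 10847 CPM, with only 1 of 14 passing and Aspa at 0. That sum was near the 10397 CPM of the Irx2/Cdh23 area, where 0 passed. Their part was not tested.
The Slc6a3/Th area followed with 982 CPM, then the meninges with 820 (759 to 885) and the neuropil with 769 (700 to 843), which did not differ from each other. The Six3/Ttr area had 684, the Irx2/Cdh23 area 646, the Sp5/Asic4 area 525, the Cartpt/Six3 area 434, the Penk/Adam33 area 298 and the Gpr161/Fezf2 area 282. Cortex had 232 (220 to 244) and the granule cell area 75.4 (63.0 to 89.5), the lowest level. Of the 13 pairs of neighbours in this order, 9 differed, more than for any other of the 6 genes.

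Serpina3n (chr12:104406646-104414334), a secreted inhibitor of serine proteases that is among the strongest genes of reactive astrocytes, was rare in this section, with 394 UMIs in 308 spots. Its level was 48.1 CPM in the granule cell area (38.3 to 59.6), from 83 UMIs on 49 spots, and 35.9 in the Irx2/Cdh23 area (28.0 to 45.3), from 71 UMIs. The tract had 33.5 (20.5 to 51.8) from 20 UMIs, the meninges 22.2 (13.2 to 35.2) from 18 and the neuropil 16.8 (8.05 to 30.9) from 10. Cortex had 3.88 (2.48 to 5.77) from 24 UMIs, the lowest level of the 14 areas. No 2 neighbours in this order differed, but its ends did, with a fold of 12.4 (7.80 to 20.5) between granule cells and cortex.
The granule cell signal was spread over many spots. Of the 49 spots, 16 had no Serpina3n UMI, 16 had 1 and 17 had at least 2. The highest spot had 14 UMIs, the next 7 and the third 6, so that 27 of 83 UMIs lay in 3 spots. After thinning to 1000 UMIs per spot, 6.12% of granule cell spots (1.28% to 16.9%) and 0.183% of cortex spots (0.00464% to 1.02%) had a UMI, against 67.3% and 4.21% before. The thinned shares rest on 3 spots and 1 spot and are too near a single UMI to be read as a difference.
Serpina3n has near-identical copies in the genome. Of 8 other Serpina3 genes in the panel, Serpina3g had 55 UMIs in all and 0 in the granule cell area, Serpina3f had 1, and the other 6 had none. How far the probes separate these copies is not given in the sources used here.

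**Figure D2:**
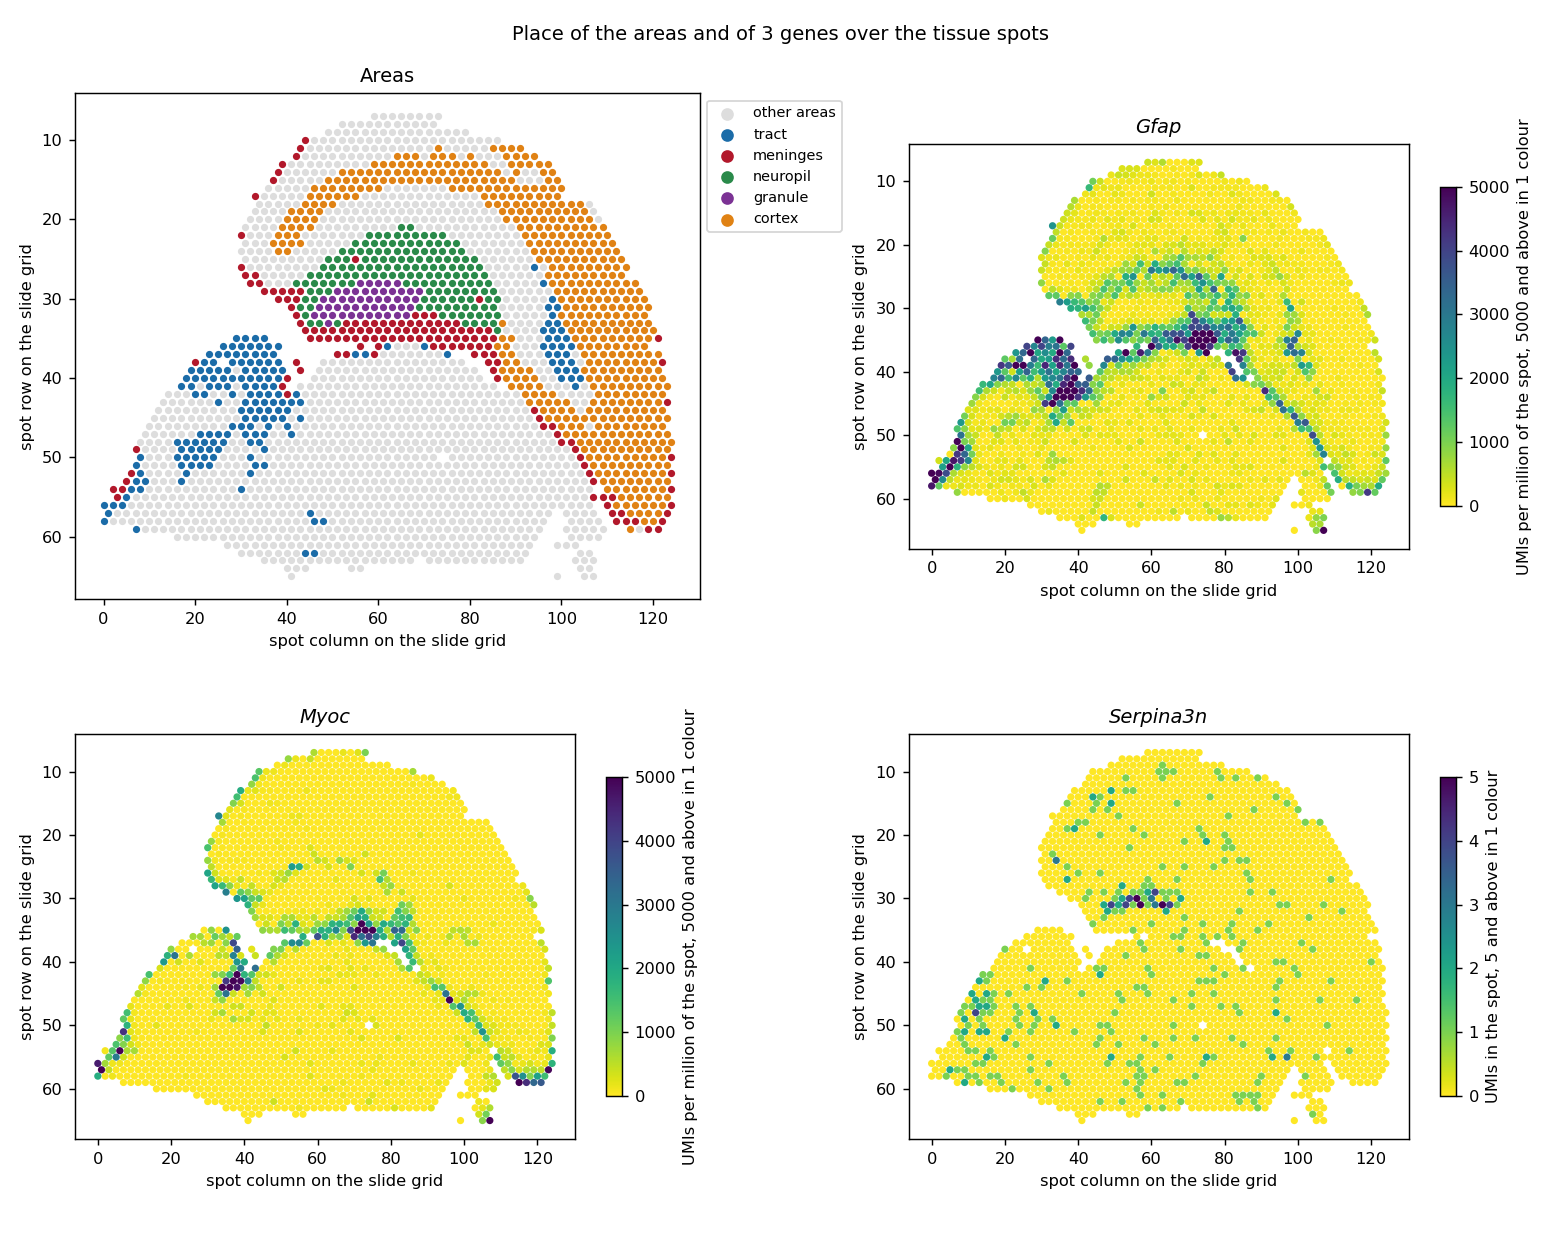
Place of the 5 named areas and of Gfap, Myoc and Serpina3n over the tissue spots, drawn on the slide's grid of rows and columns. Gfap and Myoc are in CPM of each spot, with 5000 and above in 1 colour, and Serpina3n in UMIs per spot, with 5 and above in 1 colour, because most of its spots have 0 or 1. Gfap lies along the section's edge, in the tract and in the neuropil, and Myoc along the edge and the tract beside it. The spots with the most Serpina3n UMIs lie in the granule cell area, which held 21.1% of the gene's UMIs. Spots there were deep, with a median of 33713 UMIs against 6686 over all spots, and UMIs per spot are not corrected for depth.

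The tract was then compared with cortex. Gfap was 29.1-fold higher in the tract (log2 ratio 4.86, 4.71 to 5.01) and Myoc 25.1-fold (4.65, 4.43 to 4.87). S100b was 8.48-fold higher (3.08, 2.97 to 3.20) and Vim 6.14-fold (2.62, 2.30 to 2.94). These 4 of the 6 genes had at least 100 UMIs over both areas, and all 4 were at least 2-fold higher, a fold reached upward by 9.65% of the 8169 genes measured. A gene that passes this minimum through the area where it is high has to differ, so such counts are a description. Serpina3n, with 44 UMIs, had a log2 ratio of 3.11 (2.18 to 4.03) and Tgm2, with 89 UMIs, one of 2.18 (1.47 to 2.85).
Oligodendrocyte markers were also at least 2-fold higher, in 11 of 11 measured of 14, with a summed level of 43120 CPM in the tract against 2569 in cortex. The tract was named through this list, so the rise of these markers follows from the naming. By spot, the sum ran from 15818 to 92332 in the tract and from 0 to 30830 in cortex, and no oligodendrocyte marker was at 0 in either. The part of oligodendrocytes in the tract levels, which for S100b could include their own transcripts, was not tested. Other lists were higher in the tract too, namely meningeal fibroblast genes in 3 of 3 measured (801 against 115 CPM, with Ogn at 0 in both), mural genes in 2 of 2 (277 against 60.9), endothelial genes in 3 of 4 (327 against 120, with Tie1 at 0 in the tract) and microglial genes in 4 of 8 (865 against 372). Their part was not tested either. The ratios depended on how the areas were drawn. With areas set by marker sums they were 3.00 for Gfap, 3.22 for Myoc, 2.18 for S100b and 1.27 for Vim, and with only spots inside an area 6.14, 6.16, 3.76 and 3.30. Without the Tshz2/Nrep band Myoc was at 5.51. Per spot rather than in CPM, the log2 ratios were smaller because tract spots were shallow, at 3.06 for Gfap, 2.85 for Myoc, 1.28 for S100b and 0.82 for Vim.

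The meninges were then compared with cortex. Myoc was 43.2-fold higher (log2 ratio 5.43, 5.23 to 5.64), Gfap 30.8-fold (4.95, 4.80 to 5.09), Vim 23.2-fold (4.53, 4.31 to 4.76) and Tgm2 19.3-fold (4.27, 3.83 to 4.72). S100b was 3.54-fold higher (1.82, 1.69 to 1.96). These 5 genes were the ones measured, and each passed 2-fold upward, as did 11% of 8342 genes. Serpina3n had 42 UMIs and a log2 ratio of 2.52 (1.55 to 3.46). Per spot S100b was at 0.78 and lost the call. Without the Tshz2/Nrep band Myoc was at 6.29, and with only spots inside an area Gfap was at 5.94, Vim at 5.28, Tgm2 at 5.39 and Myoc at 6.55.
Vessel and fibroblast markers were also high in these spots. Of the fibroblast list 9 of 9 measured genes of 14 were at least 2-fold higher, of the mural list 5 of 5 of 9 and of the endothelial list 7 of 7 of 10. The meninges were named through the fibroblast list, so the rise of that list follows from the naming. The summed fibroblast level was 6034 CPM in the meninges, from 419 to 24829 by spot, and 115 in cortex, from 0 to 4010, where Ogn was at 0. The mural sum was 1456 against 60.9 CPM and the endothelial sum 864 against 120, with no marker at 0 in the meninges. The astrocyte list itself was 11572 CPM against 5977. How much of Vim and Tgm2 came from fibroblasts and vessels was not tested.

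The neuropil was above cortex in the same 4 genes as the tract. Gfap was 12.1-fold higher (log2 ratio 3.59, 3.42 to 3.77), Vim 7.88-fold (2.98, 2.68 to 3.27), Myoc 4.68-fold (2.23, 1.89 to 2.56) and S100b 3.32-fold (1.73, 1.58 to 1.88). All 4 measured genes passed 2-fold, against 9.57% of 8137 genes. Tgm2, with 95 UMIs, had a log2 ratio of 2.47 (lower bound 1.81) and Serpina3n, with 34 UMIs, one of 2.11 (lower bound 0.89). Per spot only Gfap, at 2.02, and Vim, at 1.41, passed 2-fold, because neuropil spots held fewer UMIs than cortex spots, and S100b was at 0.16. S100b also lost the call with marker-sum areas (0.84, 0.71 to 0.97) and at resolution 0.6 (0.12, -0.02 to 0.26). At resolution 0.6 no granule cell area was left, and the neuropil had 207 spots, the 156 of the main area and others. The value at that resolution is therefore not one of the main neuropil alone. Gfap was between 2.22 with marker-sum areas and 4.54 with spots inside an area, apart from the per-spot value.
The neuropil was the area with the most astrocyte markers. Their sum was 18406 CPM, from 6155 to 33113 by spot, against 5977 in cortex, from 2825 to 20850, and 15 of 16 passed 2-fold. Microglial markers passed in 9 of 9 measured genes of 11, with sums of 1340 and 372 CPM. Endothelial genes passed in 5 of 5 measured (423 against 120 CPM), mural in 2 of 2 (326 against 60.9), fibroblast in 3 of 3 (613 against 115, with Ogn at 0 in both) and oligodendrocyte genes in 8 of 9 (6053 against 2569). The part of each of these in the neuropil levels was not tested.

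The granule cell area differed from cortex in another way. Gfap, with a log2 ratio of 0.20 (-0.06 to 0.46), and Vim, with -0.23 (-0.69 to 0.21), had intervals that included 0. For Gfap this did not hold under most alternatives, which put it above cortex. The ratio was 0.69 (0.46 to 0.92) at resolution 1.5, 0.95 (0.78 to 1.12) with marker-sum areas, 0.97 with no UMI minimum, 0.69 with the G2-3 list, 0.75 (0.47 to 1.03) without the Tshz2/Nrep band and 0.29 (0.02 to 0.54) with TMM scaling. Vim was at 0.60 (0.31 to 0.88) with marker-sum areas and at -0.94 (-1.73 to -0.22) with spots inside an area. S100b was lower by 3.08-fold (-1.62, -1.89 to -1.36) and Myoc by 2.04-fold (-1.03, -1.60 to -0.50), while Serpina3n was 12.4-fold higher (3.63, 2.96 to 4.35). Of the 5 genes measured, 1 was thus at least 2-fold higher and 2 at least 2-fold lower, against 6.32% and 13.8% of 8496 genes. Tgm2, with 66 UMIs, had a log2 ratio of -2.11 (-4.03 to -0.68).
The astrocyte list moved down with S100b and Myoc, with 12 of 16 genes at least 2-fold lower, 1 higher and a sum of 2512 CPM (1060 to 8827 by spot), so Serpina3n went against it. Serpina3n passed the minimum of 100 UMIs only through the granule cell area, and without its highest spot in each area it fell below that minimum, with the ratio at 3.55. Granule cell spots were deep, and per spot S100b had a log2 ratio of 0.01, Myoc 0.60, Gfap 1.84 and Serpina3n 5.27. S100b and Myoc were thus lower as shares of the area's UMIs but not per spot, and the reason was not tested. For Myoc the sign also turned when spots under 500 UMIs were kept (0.17) or the tissue marks of the other list were used (0.03). With marker-sum areas Myoc was at 0.93, S100b at 0.26 and Serpina3n at 2.12. The granule cell area set that way had 318 spots, only 49 of them from the main area, so its values describe a wider set of spots.

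Set against each other, the neuropil exceeded the granule cell area in Gfap by 10.5-fold (log2 ratio 3.39, 3.14 to 3.65), in S100b by 10.2-fold (3.35, 3.07 to 3.64), in Myoc by 9.57-fold (3.26, 2.68 to 3.87) and in Vim by 9.24-fold (3.21, 2.75 to 3.68). All 4 measured genes passed 2-fold, as did 10.7% of 4731 genes. Their ratios were close to the median of the astrocyte list, 3.12, in which 15 of 16 genes passed. Serpina3n, with 93 UMIs, was lower in the neuropil (-1.52, -2.63 to -0.57). With marker-sum areas, of 222 neuropil and 318 granule cell spots, the ratios were 1.27 for Gfap, 0.59 for S100b, 1.12 for Myoc and 1.23 for Vim. Per spot the 4 ratios were between 0.00 and 0.19, so that an average neuropil spot and an average granule cell spot, at a mean of 3818 and 35206 UMIs in all, held about the same number of these transcripts.

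The tract and the meninges split the members. Of 5 measured, S100b was 2.40-fold higher in the tract (1.26, 1.12 to 1.40), while Vim was 3.77-fold (-1.91, -2.19 to -1.64) and Tgm2 4.26-fold (-2.09, -2.74 to -1.49) higher in the meninges. Gfap and Myoc stayed under 2-fold here, but with areas set by marker sums they were at -1.88 and -2.86. With only tract spots at least 4 steps from the meninges, S100b was at 1.00 (0.84 to 1.16), just short of the 2-fold call, and with marker-sum areas at 0.24. Upward and downward, 8.11% and 10.4% of 3146 genes passed. Oligodendrocyte genes were higher in the tract in 10 of 10 measured and fibroblast genes higher in the meninges in 9 of 9. Both follow from the naming of these areas through the same lists.

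**Figure D3:**
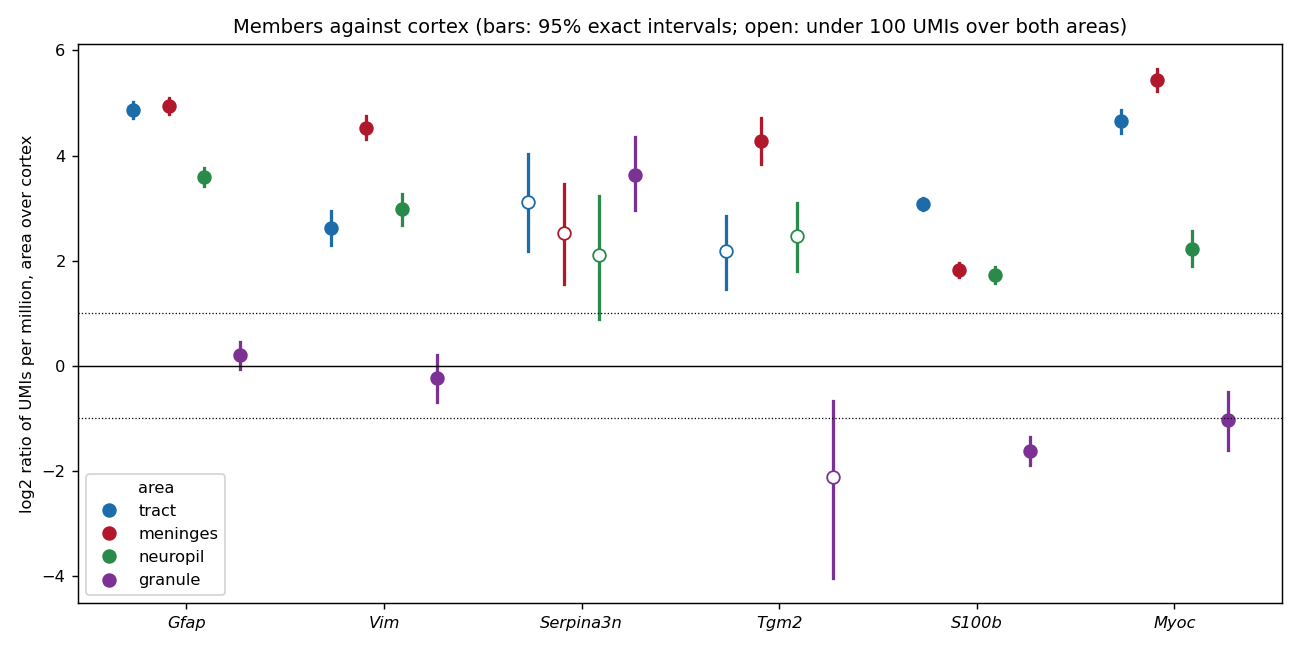
Log2 ratio of CPM in the tract, the meninges, the neuropil and the granule cell area over cortex, with 95% exact intervals, dotted lines at 2-fold and open points where fewer than 100 UMIs were counted over both areas. The granule cell points lie at or below 0 for Vim, Tgm2, S100b and Myoc and near 0 for Gfap, while that of Serpina3n is at 3.63.

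Because astrocyte content differed between areas, the members were also expressed per 100 UMIs of 16 other astrocyte genes (the glutamate transporters Slc1a2 and Slc1a3, the water channel Aqp4, the connexin genes Gja1 and Gjb6 and others). Gfap was then highest in the tract, with 29.3 (27.6 to 31.1), followed by the meninges with 21.6 (20.6 to 22.7). The neuropil had 5.32 (4.89 to 5.78), the granule cell area 3.71 (3.15 to 4.35) and cortex 1.36 (1.24 to 1.48). The neuropil, richest in astrocyte markers, thus carried less Gfap per astrocyte UMI than the tract or the meninges, and the granule cell area more than cortex. Slc1a2 and Aldoc weigh most in the list, with 17824 and 7764 of its 37002 UMIs in cortex. In the tract they had 881 and 1303 of 4799, so these values also depend on how those 2 genes differ between areas.
S100b followed a flatter order, with 24.4 in the tract, 7.09 in the meninges, 4.18 in the neuropil, 3.88 in cortex and 3.00 in the granule cell area. Outside the named areas it was 20.9 (17.8 to 24.5) in the Slc18a3/Prph area and 19.6 (18.3 to 21.0) in the Tph2/Slc18a2 area, where Gfap was 0.329 and 1.20. Myoc was 14.6 (13.8 to 15.4) in the meninges and 12.2 (11.2 to 13.3) in the tract, but 0.994 in the neuropil, 0.761 in the granule cell area and 0.654 in cortex.
Vim was 7.21 in the meninges, 2.75 in the tract and between 0.603 and 1.54 in the other 3. Tgm2 was 1.67 (1.41 to 1.95) in the meninges and 0.563 in the tract. Serpina3n was 1.92 (1.52 to 2.38) in the granule cell area, 0.417 in the tract, 0.192 in the meninges, 0.0912 in the neuropil and 0.0649 in cortex. Only for Serpina3n was the granule cell area the highest of the 5.

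**Figure D4:**
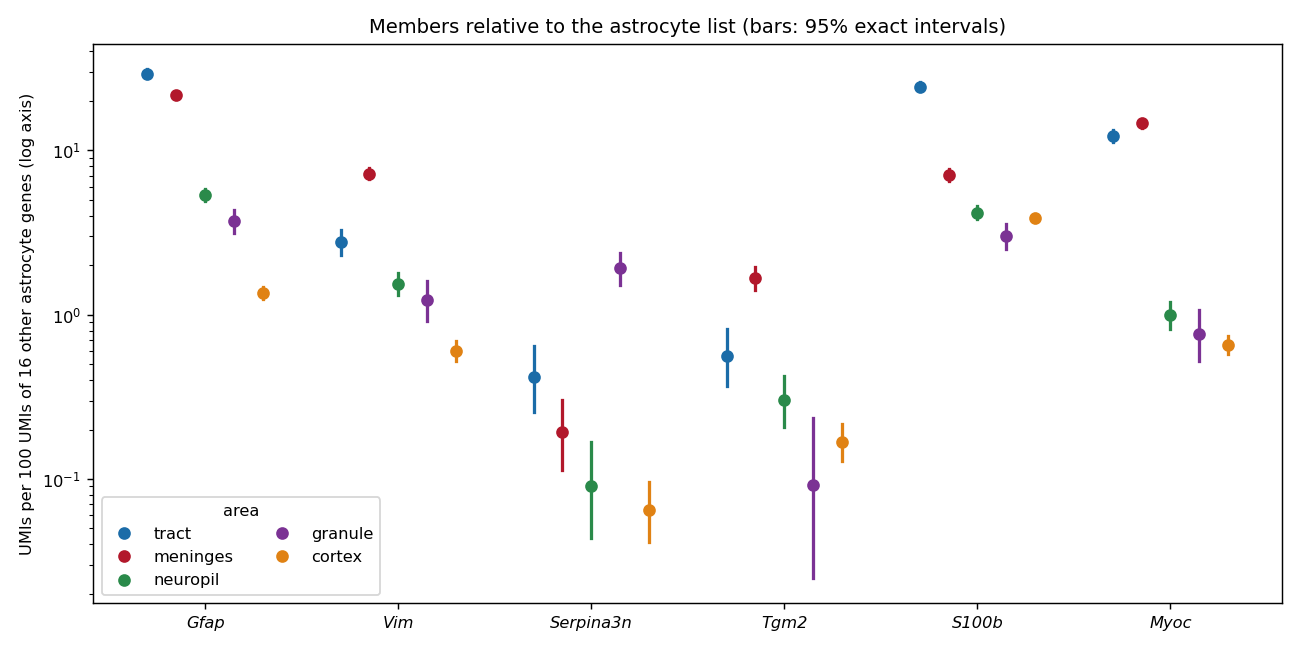
UMIs of each gene per 100 UMIs of 16 other astrocyte genes in the 5 named areas, on a log axis, with 95% exact intervals. Gfap falls from 29.3 in the tract to 1.36 in cortex, and Serpina3n is highest in the granule cell area at 1.92.

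The levels also changed with distance from the meninges, counted in steps of the spot grid to the nearest meninges spot. In cortex Gfap was 285 CPM at 1 step, 125 at 2, 77.2 at 3 and 49.5 at 4 to 5 steps, and it was 53.2 at 9 or more steps. Myoc fell by a larger factor over the same spots, from 262 CPM at 1 step to 82.5, 33.6, 17.98 and 9.18, and to 3.05 at 9 or more steps. S100b was between 205 and 295 CPM at all distances, and Vim went from 91.5 to 27.4. The fibroblast sum beside these values was 430 CPM at 1 step, 201 at 2 and 58.8 at 9 or more, while the astrocyte sum went from 7184 to 5851. The part of meningeal RNA in cortex spots beside the meninges was not tested. With areas set by marker sums, the level at 1 step was 172 CPM for Gfap and 131 for Myoc.
The cortex bands differed in their distance from the meninges as well as in Gfap. Gfap was 262 CPM in the Tshz2/Nrep band, against 47.7 in the Clec18a/Igfn1 band and 60.4 in the Vxn/Myl4 band, and 73.0% of the Tshz2/Nrep spots lay within 2 steps of the meninges. At 3 or more steps the 3 bands had 153 (106 to 215), 28.4 (20.5 to 38.5) and 60.5 (52.4 to 69.5) CPM, so the Tshz2/Nrep band was highest there too. Its meningeal fibroblast sum at that distance was 143.9 CPM, against 65.0 and 71.1 in the others, and its Myoc level 65.0 against 12.9 and 6.99. The part of meningeal RNA in this band was not tested.
In the tract Gfap and Myoc also fell with distance, Gfap only beyond 2 steps. Gfap was 4473 CPM at 1 step (23 spots), 5180 at 2 and 3675 at 3 (19 spots each), 1841 at 4 to 5, 885 at 6 to 8 and 261 at 9 or more (18 spots). Myoc went from 2541 at 1 step to 408 at 4 to 5, 89.6 at 6 to 8 and 16.3, from a bin of 18 spots, at 9 or more. With areas set by marker sums, the tract at 1 step had 2231 CPM of Gfap and 1108 of Myoc. S100b was 2280, 2844, 2687 and 2428 CPM up to 5 steps, then 1070 and 1484. Oligodendrocyte markers did not share the course of Gfap, with sums of 33108 CPM at 1 step and 42742 at 9 or more, while the astrocyte sum went from 9700 to 5251 and the fibroblast sum from 2348 to 179. Tract spots at least 4 steps from the meninges had a Gfap log2 ratio over cortex of 3.81 and a Myoc ratio of 2.32, and Gfap was below the meninges there (-1.14).
In the neuropil Gfap had no such course from the meninges, with 1215, 843, 813, 890 and 1203.5 CPM at 1, 2, 3, 4 to 5 and 6 to 8 steps. From the granule cell area outward it was 604 at 1 step, 890 at 2, 969 at 3, 1483 at 4 to 5 and 913 at 6 to 8, with astrocyte sums of 11566, 20077, 21880, 21805 and 21044. In CPM, the neuropil level of Gfap was thus lowest of these bins beside the granule cells, where the astrocyte sum was lowest too. By distance, Gfap was not set per spot or per astrocyte UMI, so this order holds for CPM only.

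**Figure D5:**
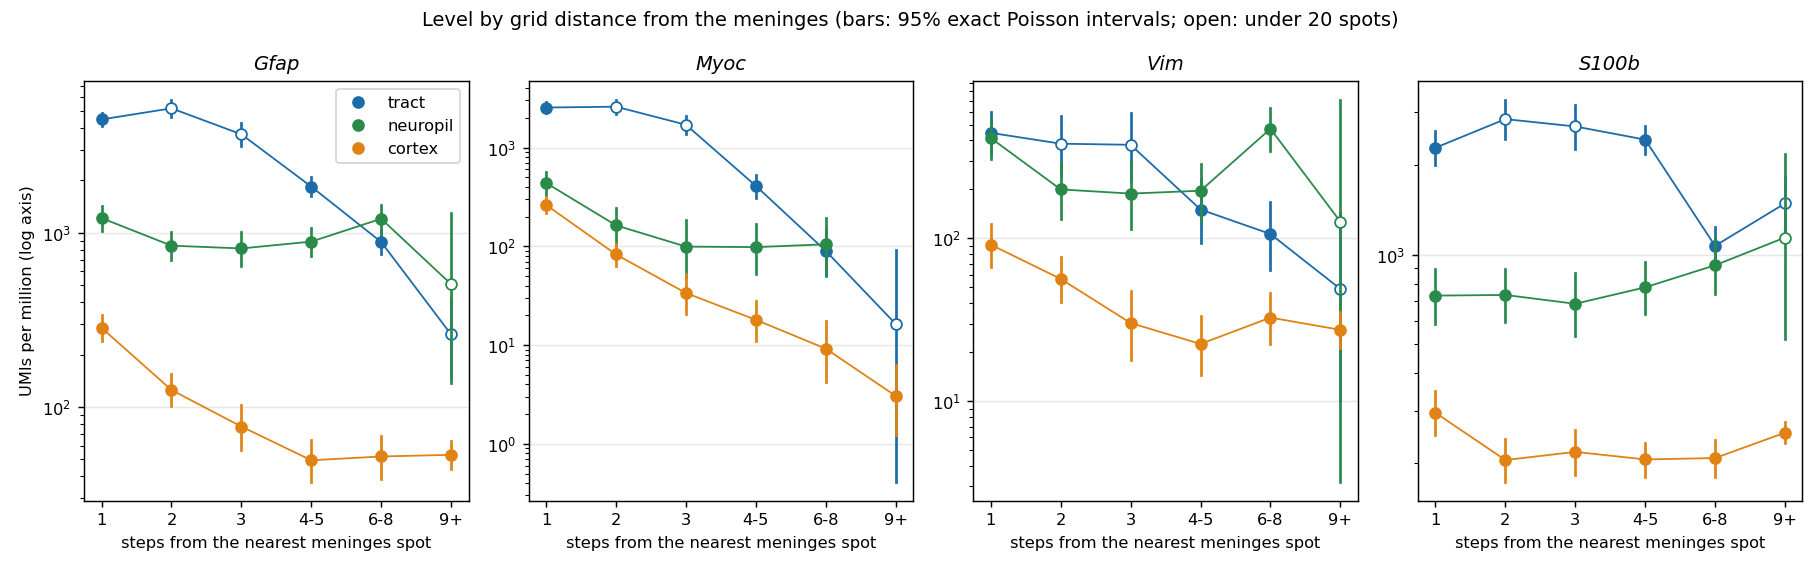
Level of Gfap, Myoc, Vim and S100b by steps from the nearest meninges spot in tract, neuropil and cortex, in CPM on a log axis, with 95% exact Poisson intervals and open points for bins of under 20 spots. In cortex Gfap goes from 285 to 53.2 CPM and in the tract from 4473 to 261, while the neuropil has no such course up to 8 steps.

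Other genes of reactive astrocytes were mostly rare. Over all measured genes, the shares at least 2-fold above cortex were 9.65% (tract), 11% (meninges), 9.57% (neuropil) and 6.32% (granule cells). The shares at least 2-fold below cortex were 17.7%, 14.5%, 13.2% and 13.8%. These shares are the background for the counts of every list below. Of the 10 other pan-reactive genes 2 were measured in the meninges against cortex, and both were higher. Aspg, an asparaginase, had a log2 ratio of 4.30 (3.75 to 4.88) and Hspb1, a small heat shock protein, 3.23 (2.81 to 3.64). In the tract and in the neuropil only Hspb1 was measured, at 1.58 (0.89 to 2.23) and 2.21 (1.63 to 2.76), and none was measured in the granule cell area. Lcn2, the acute-phase lipocalin, had 1 UMI in the tract, 3 in the meninges, 1 in the neuropil and 0 in cortex and in granule cells. Timp1 had 0 UMIs in all 5 areas.
The neuroinflammatory list, with genes of antigen presentation and complement control, was high in the meninges. Of 11 genes, 6 of 6 measured were at least 2-fold higher there than in cortex, with a list median of 2.44 against -0.19 over all genes. The highest was Fbln5, an elastic fibre gene, at 4.95 (4.28 to 5.68), and the lowest H2-T23, an MHC class I gene, at 1.09 (0.81 to 1.36). Fbln5 (93 UMIs in the meninges, 23 in cortex), Srgn (81 and 61) and Amigo2 (58 and 65) reached 100 UMIs only with the meninges counts. The count of this list is therefore a description. The part of fibroblasts and vessels in it was not tested. In the tract 1 of 3 passed, H2-D1 at 1.56 (1.12 to 1.97), and in the neuropil 0 of 3. In the granule cell area 2 of 4 were higher and 2 lower, from Amigo2, an adhesion gene, at 1.31 (0.73 to 1.88) to H2-T23 at -2.40 (-3.02 to -1.85).
Of the 12 genes of the injury list only Tm4sf1, which is also an endothelial gene, was measured. Its log2 ratio over cortex was 3.26 (2.92 to 3.60) in the meninges, 1.62 (1.07 to 2.14) in the tract, 1.30 (0.70 to 1.87) in the neuropil and -1.15 (-1.97 to -0.41) in granule cells.

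Of the STAT3 pathway, Stat3 itself, receptor chains and Socs3 were measured, and the kinases Jak1 and Jak2 stayed under 100 UMIs in each comparison. Of 10 genes, 2 of 4 measured were at least 2-fold higher in the tract, 2 of 5 in the meninges and 2 of 4 in the neuropil, with medians of 1.11, 0.82 and 1.07 against -0.18, -0.19 and -0.15 over all genes. Il6st, the shared receptor chain of interleukin-6 cytokines, was the highest in each, at 2.08 (1.43 to 2.70), 2.75 (2.26 to 3.25) and 1.88 (1.19 to 2.54). In the granule cell area 0 of 3 were higher and 1 lower, Stat3 itself at -1.01 (-1.55 to -0.51), while Lifr, a receptor chain of the same family, was at 0.00 (-0.65 to 0.61). Socs3, the feedback inhibitor of the pathway, was measured only for the meninges, at 0.70 (-0.13 to 1.44).
Few other filament genes had enough UMIs. In the tract 0 of 2 measured of 7 passed 2-fold, and Plec, which links filaments, was at -0.37 (-0.54 to -0.20). In the meninges 1 of 3 passed, Des, the filament of muscle and mural cells, at 4.82 (4.24 to 5.43). In the neuropil Lmna, of the nuclear lamina, was lower at -1.23 (-1.95 to -0.59).
In the astrocyte list, Agt, the precursor of angiotensin, was highest against cortex in the tract, at 4.58 (4.34 to 4.81), and in the meninges, at 4.36 (4.14 to 4.60), and Aqp4 was highest in the neuropil, at 3.33 (2.97 to 3.70). The glutamate transporter Slc1a2 was the lowest in the tract, at -0.96 (-1.06 to -0.87), and in the meninges, at 0.28 (0.23 to 0.34). In the granule cell area Slc4a4, a bicarbonate transporter, was highest at 1.27 (0.91 to 1.62) and Aldh1l1, a folate enzyme used as an astrocyte marker, lowest at -2.42 (-2.99 to -1.90). Genes of the fibrous astrocyte list passed 2-fold upward in 7 of 9 in the tract, 9 of 11 in the meninges and 9 of 11 in the neuropil. In granule cells 1 of 9 did, Igfbp5 at 1.73 (1.64 to 1.82). Gfap, Vim, Myoc and Aqp4 are on this list too, so its counts overlap those above. Downward, 2 genes passed in the tract, 2 in the meninges, 0 in the neuropil and 5 in granule cells. The lowest were Ly6h in the tract, at -2.39 (-2.64 to -2.15), and Fxyd6 in the meninges, at -1.25 (-2.08 to -0.53).

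The genes whose levels ran most like each member over the 14 areas were found among 6878 genes with at least 500 UMIs, by Pearson's r of log2 levels, as a description of areas that share 1 library. For Gfap these were C4b, a complement gene, with r of 0.957, Mpv17l2 with 0.941 and Llgl1 with 0.928. For Myoc they were Mpv17l2 with 0.926, C4b with 0.926 and Phyhd1 with 0.916. For Vim they were Lamb2, a laminin of basement membranes, with 0.978, the haemoglobin gene Hbb-bt with 0.977 and Ifitm3 with 0.952. For Tgm2 they were Pdlim5 with 0.972, Fcgrt with 0.969 and Trp53inp1 with 0.966, and for S100b Gng11 with 0.945, Gltp with 0.945 and Reep3 with 0.940. For Serpina3n the highest were lower, B3galt5 with 0.811, Derl1 with 0.791 and Pakap with 0.776.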

How the data were processed

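For 1 Visium CytAssist library, UMI counts of each gene in each spot were used. The deposited counts were made with Space Ranger 3.1.1, per the file headers, against mm10, per the submitters' processing notes; the probe set is not given in the sources used here. Both samples' matrices were the same file, so the one listed for WT was used with that sample's tissue marks (2487 spots; 2 were under 500 UMIs). The G2-3 list marked 2969 spots, of which 751 had no counts.
Spots were clustered with scanpy 1.11.5 (2000 variable genes, 30 components, 15 neighbours, Leiden resolution 1) without the members and the reactive, filament and astrocyte lists. A cluster was named from at least 3 markers of a region list; that only region lists compete for names was set after the clusters were seen. UMIs were summed per area. With 1 library there is no test: levels have exact Poisson, ratios exact conditional (Clopper-Pearson) and shares exact binomial 95% intervals, checked on simulated data. A call is 2-fold with at least 100 UMIs over both areas. Doublets do not apply to spots. The members and lists were chosen with earlier results of these data known. Named genes are the members, the highest and lowest measured gene of each list per comparison, and the 3 genes most like each member; Lcn2, Timp1 and the Serpina3 copies were named after their values were seen. Alternatives were other resolutions, areas set by marker sums, spots inside an area, no UMI minimum, a minimum of 20 UMIs over both areas, UMIs per spot, the G2-3 list and TMM scaling (edgeR 4.0.16).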

Additional observations from a re-analysis of the deposited data

Results flagged for a closer look

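The matrix also held 235 spots that are not marked as tissue in the list used, with 697435 UMIs and a median of 2507, of which 119 are marked in the other list. In them all 6 genes lay above the 4.30 CPM that 3 counts would give. Gfap was at 952 CPM, Vim at 350, Tgm2 at 96.1 and Myoc at 731, each above its level over all tissue spots (302, 84.3, 20.1 and 133 CPM). S100b was at 761 CPM against 473 and Serpina3n at 15.8 against 18.8. These differences were not tested.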

How the results depend on the processing

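Of 384 log2 ratios under the alternatives, 236 stayed within the counting interval of the reported value, 142 lay outside it, and 6 that had been called changed sign. In all, 367 kept their sign. TMM scaling left all 36 ratios within their intervals. The lower minimum of 20 UMIs changes only which genes count as measured. Its 36 ratios equal the reported ones by design and are included in the 384 and the 236. The 6 were all between granule cells and cortex; ratios that had not been called also turned, among them Gfap in the tract against the meninges (0.06 at resolution 1.5, 0.21 with spots inside an area). S100b went from -1.62 to 0.26 with areas set by marker sums and 0.01 as UMIs per spot. Myoc went from -1.03 to 0.93 and 0.60 under the same settings, to 0.17 with no UMI minimum and to 0.03 with the tissue spots of the G2-3 list. The cause was not tested. Granule cell spots held more UMIs, and the marker-sum granule cell area had 318 spots, of which 49 were those of the main area.
The number of members at least 2-fold higher moved as UMIs per spot, from 4 to 3 for tract and from 5 to 4 for meninges against cortex, from 4 to 2 for neuropil against cortex, from 1 to 3 for granule cells against cortex, from 4 to 0 for neuropil against granule cells and from 1 to 0 for tract against meninges. It was 0 for granule cells against cortex with spots inside an area or without the highest spot, and 0 for tract against meninges with marker-sum areas or tract spots at least 4 steps from the meninges. Removing the highest spot, removing the Tshz2/Nrep band and keeping only tract spots at least 4 steps from the meninges were alternatives chosen after seeing the data. Resolution 0.6 gave no granule cell area, and its neuropil had 207 spots, 156 of them those of the main area. Shares of spots were all higher without thinning. No paired analysis was possible because both samples hold the same matrix.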

Other observations

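Over the 14 areas, which share 1 library and its depth, log2 levels of Vim ran with those of Tgm2 (Pearson's r 0.938) and Gfap with Myoc (0.928) and Vim (0.908), while Gfap and S100b had r of 0.389 and Gfap and Serpina3n 0.0875. Over the 2485 spots the same pairs had r of 0.251, 0.629, 0.473, 0.317 and 0.0218. These are descriptions over areas and spots of 1 section.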
